A study of Arabidopsis thaliana with 54 samples.

Results

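The YSL (yellow stripe-like) genes of Arabidopsis thaliana, YSL1 to YSL8, were followed in roots and rosettes of plants deprived of iron, copper or both metals. The family was taken by its gene identifiers, and all 8 members were among the 33610 genes counted in each of 54 RNA-seq libraries. YSL proteins are membrane transporters related to the oligopeptide transporters and are named after the maize yellow stripe1 gene, whose protein takes up iron bound to phytosiderophores. Arabidopsis makes no phytosiderophores, and its YSL proteins are known for moving metals bound to nicotianamine, a chelator made from S-adenosylmethionine. YSL1, YSL2 and YSL3 are known from tissues along the veins, and YSL1 and YSL3 from the export of metals out of ageing leaves and the loading of seeds. YSL4 and YSL6 are known from membranes inside the cell, and YSL7 and YSL8 from the uptake of the bacterial peptide toxin syringolin A.

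The study profiled the spl7 mutant (SALK_109908c), a copper uptake mutant that carries an insertion in the gene of the transcription factor SPL7, and the wild type Col-0. SPL7 directs the copper deficiency response. Plants were grown in hydroponics for 10 days as seedlings and 14 days in containers of 16 plants, and then spent 3 days in 1 of 4 solutions. These were a solution lacking both metals, an iron-free solution with 0.5 µM copper, a copper-free solution with 25 µM iron, and a control solution with 25 µM iron and 0.5 µM copper. During the pretreatment, spl7 plants received 25 µM iron with 2.5 µM copper, and Col-0 plants 25 µM iron with 0.1 µM copper. One further group of spl7 plants received the 0.1 µM copper of Col-0 before the control solution and is called the low-copper-pretreated spl7 control. In each organ 5 groups were therefore spl7 and 4 were Col-0, with 3 libraries per group. A difference between the responses of spl7 and Col-0 also compares the pretreatments, and the low-copper-pretreated control is the 1 spl7 group with the pretreatment of Col-0. Iron was supplied as Fe(III)-EDDHA. The labels do not say that replicates came from separate containers, so the p-values measure how much these libraries vary, and that variation may be partly technical.

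In the genome build TAIR10.1, YSL1 (AT4G24120) lies on chromosome 4 at 12524186 to 12527347. YSL2 (AT5G24380, 8323895 to 8326705), YSL4 (AT5G41000, 16420755 to 16423830) and YSL3 (AT5G53550, 21755251 to 21758950) lie on chromosome 5. YSL5 (AT3G17650, 6034109 to 6037349) and YSL6 (AT3G27020, 9961277 to 9964737) lie on chromosome 3, and YSL8 (AT1G48370, 17874436 to 17877462) and YSL7 (AT1G65730, 24442388 to 24446291) on chromosome 1. YSL6 is on the minus strand and the other members are on the plus strand, and all are protein-coding genes.

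Library totals were about 9254760 to 17277400 counts in roots and 11694900 to 20061800 counts in rosettes. SPL7 itself stood at 23.0 to 28.9 CPM in the spl7 root libraries and 58.2 to 77.7 CPM in the Col-0 root libraries. Reads of the gene were thus fewer in spl7 and not absent, and whether they came from a whole transcript was not examined. The same gene had 9.05 to 18.3 CPM in spl7 rosettes and 23.5 to 30.8 CPM in Col-0 rosettes. The 5 root markers summed to 720 to 1854 CPM in root libraries and 0.92 to 2.67 CPM in rosette libraries, where EXPA7 and CASP1 were at or near 0. The 5 leaf markers summed to 11.3 to 156.5 CPM in roots and 15643 to 36618 CPM in rosettes. Replicate 3 of the iron-free spl7 roots stood apart from its group. Its squared count deviation from replicates 1 and 2, averaged over genes, was 69.3 and 66.1 times the sampling variance. No other pair of replicates in any group exceeded 27.3. It had 51.5 CPM of the ferritin gene FER1 against 13.0 and 12.7 CPM in the other libraries of its group, though FER1 also varied within other groups. The called changes that rest on the iron-free spl7 roots are given with and without that library. CPM values are counts scaled to the library total after TMM scaling. A gene was called in a comparison at a Benjamini-Hochberg adjusted p below 0.05 over all genes tested by edgeR's quasi-likelihood test. Shares of all genes are those called by this test, and none is given at an unadjusted p or by DESeq2. Member counts of those kinds are therefore not set against all genes. Changes are log2 changes ± standard error.

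The first question was where each member is expressed. YSL1 was the member most strongly higher in rosettes, and YSL2, YSL3 and YSL7 were higher in roots. In the Col-0 control, scaled over all 54 libraries, 6 of 8 members differed between the organs, where 77.9% of all 22078 genes tested differed. A share of members near that of all genes is no property of the family, and the sizes are what set the members apart from each other. Fewer cells of a type and less RNA per cell cannot be told apart in whole organs. YSL1 had 0.549, 0.344 and 0.453 CPM per kb of exonic sequence in roots and 17.1, 7.31 and 13.6 CPM per kb in rosettes. The organs did not overlap, and the log2 change of roots over rosettes was -4.83 ± 0.34 (adjusted p = 9.26e-17). YSL2 had 8.09, 10.14 and 7.28 CPM per kb in roots and 1.73, 1.83 and 1.96 CPM per kb in rosettes, a log2 change of 2.21 ± 0.20 (adjusted p = 4.23e-13). YSL7 had 3.45, 3.52 and 3.73 CPM per kb in roots and 0.542, 0.656 and 1.15 CPM per kb in rosettes, a log2 change of 2.15 ± 0.24 (adjusted p = 1.41e-10). YSL3 was spread over both organs, with 18.1, 23.9 and 18.8 CPM per kb in roots and 8.46, 9.34 and 9.10 CPM per kb in rosettes (log2 change 1.18 ± 0.16, adjusted p = 1.28e-08). YSL5 and YSL6 were somewhat lower in roots, with log2 changes of -0.27 ± 0.11 (adjusted p = 0.0295) and -0.51 ± 0.08 (adjusted p = 9e-07). YSL5 was no longer called without replicate 1 or 3 of either organ, with adjusted p up to 0.0896. YSL4 and YSL8 were not called.

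Ranked by mean level per kb in Col-0 control roots, the order was YSL5 (24.7 ± 1.39 CPM per kb), YSL3 (20.2 ± 3.16), YSL6 (19.2 ± 1.62), YSL2 (8.50 ± 1.47), YSL8 (5.74 ± 0.411), YSL4 (3.89 ± 0.235), YSL7 (3.57 ± 0.145) and YSL1 (0.449 ± 0.102), each as SD with n = 3. The libraries of YSL5 and YSL3 overlapped, as did those of YSL3 and YSL6 and those of YSL4 and YSL7. The other neighbours in the root order did not overlap. In Col-0 control rosettes the order was YSL5 (29.8 ± 0.921), YSL6 (27.2 ± 0.533), YSL1 (12.6 ± 4.94), YSL3 (8.97 ± 0.454), YSL8 (6.81 ± 0.809), YSL4 (3.36 ± 0.515), YSL2 (1.84 ± 0.111) and YSL7 (0.784 ± 0.325), again in CPM per kb. YSL1 and YSL3 overlapped there, because 1 of the 3 rosette libraries had little YSL1, and no other neighbours did.

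**Figure D1:**
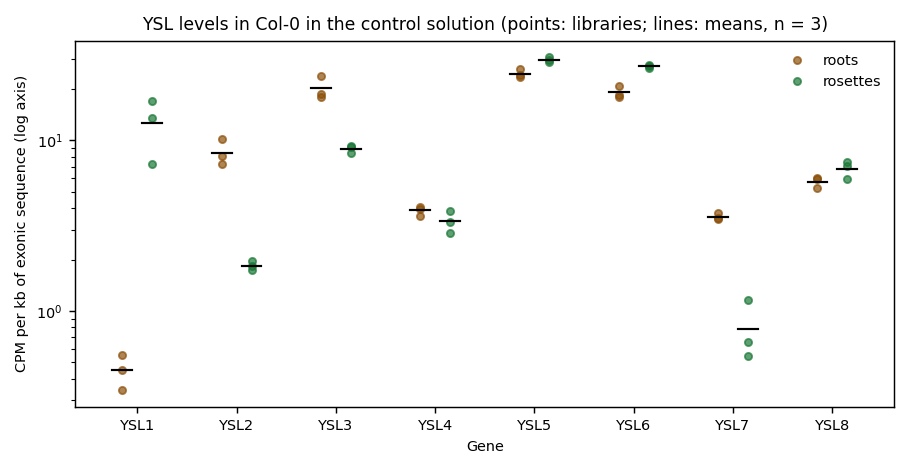
Level of each YSL gene in the Col-0 control, in CPM per kb of exonic sequence on a log axis, for roots (left of each pair) and rosettes. Points are libraries and lines are means of 3. YSL1 lies at 0.449 in roots and 12.6 in rosettes, while YSL2, YSL3 and YSL7 lie higher in roots.

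The groups of an organ differ in metal supply, genotype and pretreatment, and some members moved over these groups while others hardly did. In roots the highest group mean was 7.13 times the lowest for YSL1, 5.08 times for YSL2 and 2.88 times for YSL3, and between 1.22 and 1.60 times for the other members. In rosettes the ratio was 6.06 for YSL1, 6.75 for YSL2, 3.17 for YSL7 and 2.00 for YSL8, and between 1.16 and 1.75 for YSL3, YSL4, YSL5 and YSL6. For YSL2 in both organs the highest group was copper-free Col-0 and the lowest copper-free spl7, which differ in genotype and pretreatment. Over 16 comparisons in roots, YSL2 was called in 6, YSL3 in 5, YSL1 in 4, YSL7 in 2, YSL6 in 1, and YSL4, YSL5 and YSL8 in none. Over the same 16 in rosettes, YSL2 was called in 5, YSL1, YSL3, YSL6 and YSL8 in 4 each, YSL7 in 1, and YSL4 and YSL5 in none. These comparisons share groups, so a member's calls are not independent of each other. They also include comparisons of genotype and of pretreatment. Of all genes tested, 0.044% to 20.4% were called in a root comparison and 0.02% to 42.2% in a rosette one. Calls over the 16 comparisons were not counted for all genes, so a member's number of calls is not set against other genes.

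**Figure D2:**
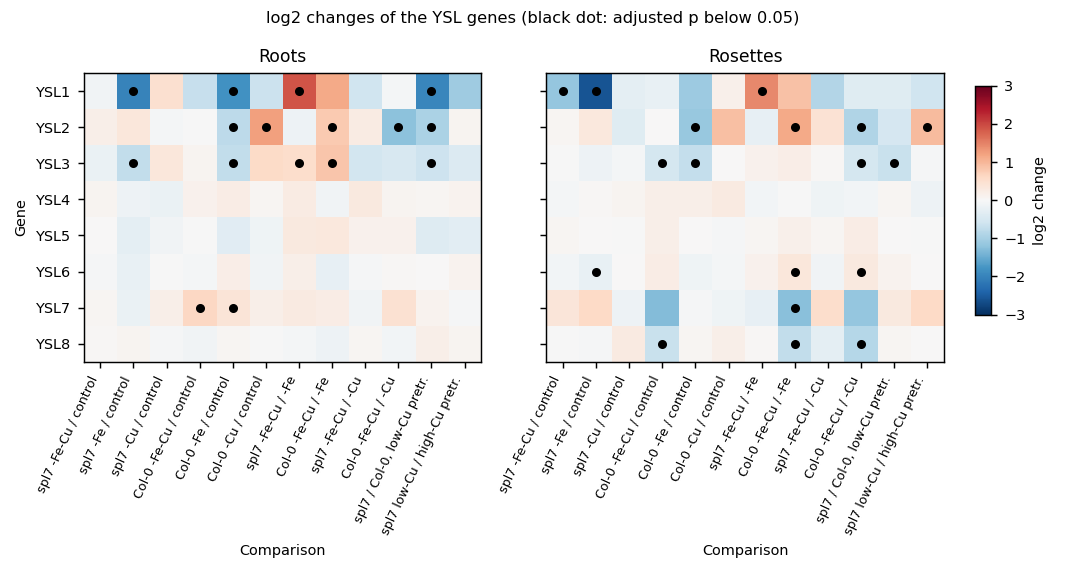
log2 change of each YSL gene (rows) in 12 comparisons of 2 groups (columns) for roots and rosettes, on a colour scale from lower (blue) to higher (red) in the group named first. Black dots mark adjusted p below 0.05. In roots the dots gather in the rows of YSL1, YSL2 and YSL3, with 2 for YSL7, and rosettes also have dots for YSL6, YSL7 and YSL8.

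YSL2, which in roots sits in and around the vascular tissue, was the one member called in copper-free Col-0 roots, where it was about 2.4-fold higher. It had 53.2, 56.3 and 56.4 CPM in copper-free Col-0 roots, against 22.4, 27.5 and 20.4 CPM in Col-0 control roots. All 3 copper-free libraries lay above all controls, with a log2 change of 1.24 ± 0.17 (adjusted p = 0.000699), in a comparison that called 0.0733% of all genes tested. The share of YSL2 in the summed CPM of the 8 members was 15.7% to 18.2% in copper-free Col-0 roots and 7.85% to 9.55% in the controls. In spl7 roots YSL2 had 10.9, 10.3 and 11.4 CPM without copper, against 13.7, 8.09 and 12.2 CPM in the spl7 control. The log2 change there was -0.06 ± 0.19, with a 95% interval of -0.46 to 0.34 and an adjusted p of 0.979. No member was called in copper-free spl7 roots (0.21% of all genes), 1 member, YSL3, had an unadjusted p below 0.05, and DESeq2 called 0. The copper response of spl7 minus that of Col-0 was -1.30 ± 0.26 for YSL2, with an adjusted p of 0.0629 and 0.044% of all genes called. Without replicate 3 of the iron-free spl7 roots in the fit the same difference had an adjusted p of 0.0163, in a fit of only the 4 groups 0.0359, and by the DESeq2 Wald test 0.00187. No other member had an unadjusted p below 0.05 for this difference. Without that library YSL3 was called beside YSL2 in copper-free Col-0 roots, 2 members in place of 1, with 1.31% of all genes.

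The 300 bases before the annotated gene starts of YSL2 and YSL3 are shown because GTAC is the core of the copper response element that SPL7 binds. They are RefSeq sequence of build TAIR10.1, the plus strand for both genes, at chr5:8323595-8323894 for YSL2 and chr5:21754951-21755250 for YSL3, with GTAC in capitals.
YSL2: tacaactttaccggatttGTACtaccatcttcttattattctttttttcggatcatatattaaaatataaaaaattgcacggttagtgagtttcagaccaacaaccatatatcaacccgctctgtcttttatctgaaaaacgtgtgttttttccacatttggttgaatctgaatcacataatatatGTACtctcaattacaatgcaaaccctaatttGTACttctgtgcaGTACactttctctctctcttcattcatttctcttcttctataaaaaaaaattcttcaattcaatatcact
YSL3: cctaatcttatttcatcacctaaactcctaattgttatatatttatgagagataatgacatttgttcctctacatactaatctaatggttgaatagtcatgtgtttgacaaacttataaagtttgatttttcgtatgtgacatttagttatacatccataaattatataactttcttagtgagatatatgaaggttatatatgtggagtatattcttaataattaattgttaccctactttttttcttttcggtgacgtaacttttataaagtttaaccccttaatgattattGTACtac
YSL2 held 4 GTAC, a word that reads the same on both strands, and they began 282, 114, 83 and 70 bases before the gene start. YSL3, YSL5 and YSL8 held 1 GTAC each, 7, 168 and 139 bases before the start, and YSL1, YSL4, YSL6 and YSL7 held none. Of 27443 promoter windows of this length, 39.7% held at least 1 GTAC and 0.452% held at least 4. The G-box CACGTG, searched on both strands, was in no member's window and in 7.09% of all windows. These matches describe the letters alone.

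Iron deficiency gave YSL2 the opposite direction in Col-0 roots. The gene had 16.7, 9.94 and 14.4 CPM in iron-free Col-0 roots, all below the 3 controls, and the log2 change was -0.78 ± 0.18 (adjusted p = 0.00514). In that comparison 4 of 8 members were called, YSL1, YSL2 and YSL3 lower and YSL7 higher, where 20.4% of all genes tested were called. The 5 xylem markers summed to 421 to 545 CPM in iron-free Col-0 roots and 541 to 613 CPM in the Col-0 control, with 0 of 5 called. Of the 4 phloem markers 1, and of the 5 root markers 2, were called higher and none lower. The part of these markers in the result was not tested. In iron-free spl7 roots YSL2 had 14.6, 14.2 and 14.4 CPM, each above the 3 libraries of the spl7 control, with a log2 change of 0.34 ± 0.19 that did not pass the test (adjusted p = 0.231, and 0.202 without replicate 3). The iron response of spl7 exceeded that of Col-0 by 1.12 ± 0.26 (adjusted p = 0.0105), in a comparison with 2 of 8 members called (YSL2 and YSL6) and 7.02% of all genes. Without replicate 3 of the iron-free spl7 roots the difference was 1.12 (adjusted p = 0.00427), and in a fit of only the 4 groups it missed the threshold (adjusted p = 0.0813).

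With both metals withheld, YSL2 in Col-0 roots stood where it stood in the control. It had 26.1, 24.2 and 19.96 CPM without both metals, overlapping the controls, and the log2 change was -0.0049 ± 0.17 with a 95% interval of -0.36 to 0.35 (adjusted p = 0.992). It was higher than in iron-free Col-0 roots, by 0.77 ± 0.18 (adjusted p = 0.00835), among 2 of 8 members called, YSL2 and YSL3, and 8.72% of all genes. Without replicate 2 of the iron-free Col-0 roots YSL2 was not called there (adjusted p = 0.0552). Without replicate 3 of the iron-free spl7 roots in the fit, YSL1, YSL2, YSL3, YSL5 and YSL6 were called, 5 members in place of 2, beside 17.6% of all genes. Relative to copper-free Col-0 roots YSL2 was lower, at -1.24 ± 0.17 (adjusted p = 9.33e-05), the 1 member called there beside 5.66% of all genes. Without that library, when 13% of all genes were called, and by DESeq2, YSL2, YSL3 and YSL7 were called. In spl7 roots without both metals it had 13.2, 12.2 and 13.2 CPM, and the log2 change from the spl7 control was 0.18 ± 0.19 (adjusted p = 0.892). No member was called in that comparison by edgeR or DESeq2 or at an unadjusted p below 0.05, and 0.855% of all genes were. Every spl7 root library of any treatment lay between 8.09 and 15.6 CPM of YSL2, below the lowest Col-0 library outside the iron-free group.

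Rosettes had much less YSL2, and in Col-0 it was again highest in the copper-free group and lowest in the iron-free one. Counts there were 12 to 122 per library. YSL2 had 7.197, 7.36 and 6.23 CPM in copper-free Col-0 rosettes, against 3.48, 3.66 and 3.93 CPM in Col-0 control rosettes. The groups did not overlap, but the log2 change of 0.91 ± 0.22 missed the threshold (adjusted p = 0.191). No member was called in that comparison, in which 4 genes in all, 0.02%, were called. There 2 members, YSL2 and YSL4, had an unadjusted p below 0.05, and DESeq2 called 0. In iron-free Col-0 rosettes YSL2 had 1.02, 1.60 and 2.28 CPM, all below the controls, with a log2 change of -1.14 ± 0.25 (adjusted p = 0.0114). It missed the threshold without replicate 1 or 2 of the iron-free Col-0 rosettes (adjusted p up to 0.0755) and in a fit of only the 2 groups (adjusted p = 0.11). Without both metals Col-0 rosettes had 4.11, 2.36 and 4.57 CPM, around the control (log2 change 0.0026 ± 0.23, 95% interval -0.47 to 0.48).

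The spl7 rosettes held YSL2 between 0.886 and 2.82 CPM in all libraries. Without iron it had 1.42, 1.40 and 2.17 CPM, against 1.41, 1.059 and 1.59 CPM in the spl7 control, and these groups overlapped (log2 change 0.31 ± 0.28, adjusted p = 0.445). The iron response of spl7 rosettes exceeded that of Col-0 rosettes by 1.46 ± 0.37 (adjusted p = 0.0193), in a comparison with 2 of 8 members called, YSL1 and YSL2, and 8.46% of all genes. Without replicate 3 of the iron-free spl7 rosettes this difference missed the threshold (adjusted p = 0.057). For copper the difference was -1.28 ± 0.38 and was not called (adjusted p = 0.297). No member was called for it by edgeR or DESeq2, against 0.03% of all genes, and YSL2 alone had an unadjusted p below 0.05. The responses to both metals withheld differed by 0.07 ± 0.37. In that comparison no member was called by edgeR or DESeq2 in rosettes (8.29% of all genes by edgeR), and YSL1, YSL3, YSL6, YSL7 and YSL8 had unadjusted p below 0.05. The share of all genes at that unadjusted threshold was not counted, so these members are not set against it.

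YSL2 shares 99 bases with AT5G24390 on the opposite strand, and the strand setting of the counting is not given in the sources used here. AT5G24390 was also higher in Col-0 control roots than in rosettes, by 1.81 ± 0.17 (adjusted p = 7.68e-13), the direction of YSL2. It had no adjusted p below 0.05 in the 16 root comparisons or in the rosette comparisons of each treatment with its control. It was lower in Col-0 rosettes without both metals than in iron-free ones (log2 change -0.82 ± 0.23, adjusted p = 0.0214), where YSL2 was higher by 1.15 ± 0.25 (adjusted p = 0.00356). Against copper-free Col-0 rosettes it was lower by -0.79 ± 0.23 (adjusted p = 0.0455) on the log2 scale, and YSL2 by -0.90 ± 0.22 (adjusted p = 0.0131). Without replicate 2 of either group that YSL2 call was lost (adjusted p up to 0.0994).

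**Figure D3:**
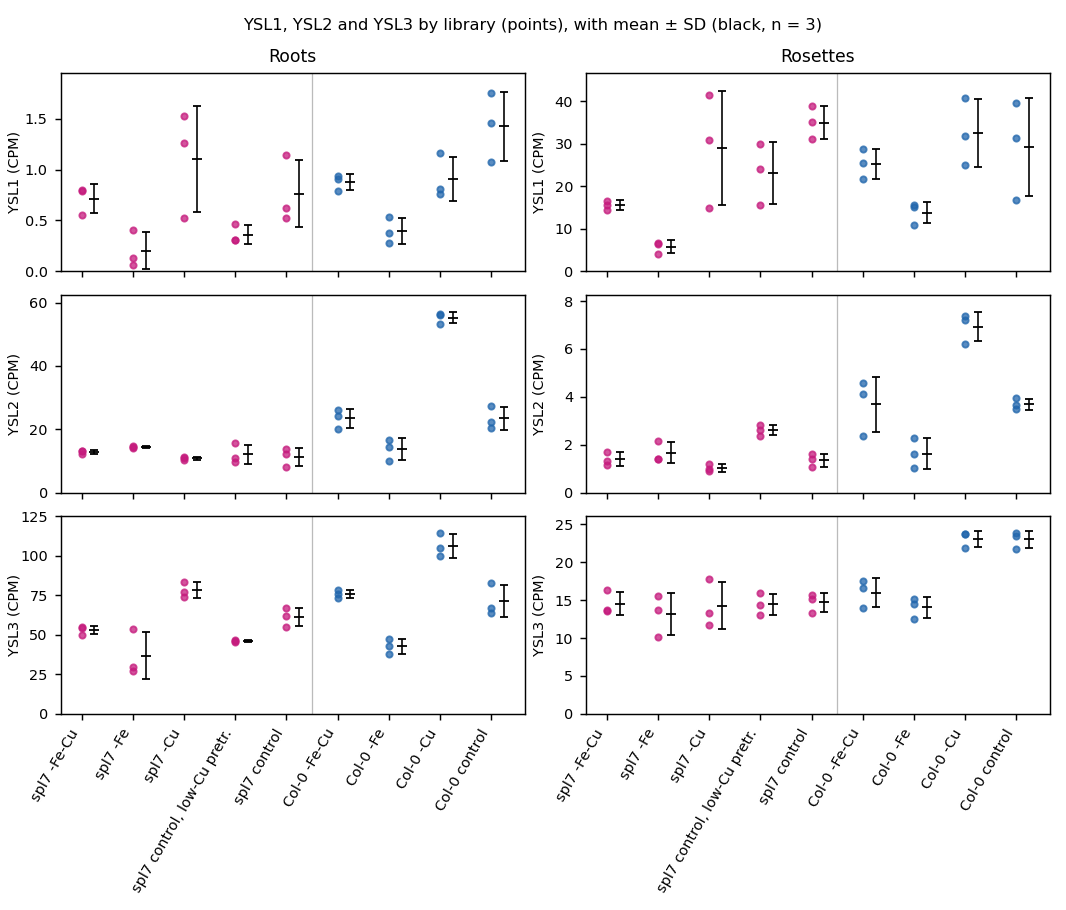
CPM of YSL1, YSL2 and YSL3 in roots and rosettes by group, spl7 groups left of the vertical line and Col-0 groups right of it. Points are libraries, and black bars are the mean ± SD of 3. YSL2 in roots stands at 53.2 to 56.4 CPM in copper-free Col-0 and at 15.6 CPM or less in every spl7 library.

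YSL3, the closest relative of YSL2 by coding sequence (71.1% identical bases) and a transporter of vascular parenchyma, fell without iron in roots of both genotypes. It had 27.5, 29.4 and 53.9994 CPM in iron-free spl7 roots, against 62.2, 55.0 and 66.7 CPM in the spl7 control. All 3 lay below the control, the third just below it, and the log2 change was -0.74 ± 0.16 (adjusted p = 0.00471). In that comparison 2 of 8 members were called, YSL1 and YSL3, and 13.1% of all genes. Without the library that stands apart YSL3 had a log2 change of -1.12 (adjusted p = 3.36e-08), and YSL1, YSL3, YSL5 and YSL6 were called, 4 members in place of 2, while the share of all genes called was 39.7%. YSL6 had a log2 change of -0.30 there (adjusted p = 0.00853). The 5 xylem markers summed to 336 to 509 CPM in iron-free spl7 roots and 582 to 899 CPM in the spl7 control, with 4 of 5 called lower, and the 4 phloem markers had none called. With replicate 3 left out, 5 of 5 xylem markers were lower, and 2 phloem markers were higher and 1 lower. Their part in the result was not tested. Without replicate 1 of the iron-free spl7 roots the YSL3 call was lost (adjusted p = 0.0536), and in a fit of only the 2 groups YSL3 was not called (adjusted p = 0.322). In iron-free Col-0 roots YSL3 had 47.5, 43.1 and 37.8 CPM, against 64.1, 82.6 and 67.1 CPM in the Col-0 control, and the log2 change was -0.74 ± 0.16 (adjusted p = 0.00412). The difference between the iron responses was -0.0015 ± 0.22, with a 95% interval of -0.47 to 0.46, and -0.38 without the library that stands apart (adjusted p = 0.0723).

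Withholding copper together with iron left YSL3 above its iron-free level in both genotypes. It had 55.0, 50.2 and 54.1 CPM in spl7 roots without both metals, which overlapped the iron-free spl7 range because of replicate 3 of the iron-free group. The log2 change over iron-free spl7 roots was 0.53 ± 0.16 (adjusted p = 0.035), one of 2 of 8 members called, with YSL1, beside 13.9% of all genes. It was 0.91 without the library that stands apart (adjusted p = 4.84e-07). YSL3 was not called without replicate 1 or 2 of the iron-free spl7 roots or any one library of the spl7 roots without both metals (adjusted p up to 0.288), nor in a fit of only the 2 groups (adjusted p = 0.411). Without the library that stands apart YSL1, YSL3, YSL4, YSL5 and YSL6 were called, 5 members in place of 2, beside 44% of all genes. In Col-0 roots without both metals YSL3 had 73.3, 76.0 and 78.1 CPM, all above the iron-free libraries, with a log2 change of 0.82 ± 0.16 (adjusted p = 0.0025). Copper-free Col-0 roots had 114.5, 99.6 and 104.7 CPM, all above the Col-0 control, yet the log2 change of 0.58 ± 0.16 was not called (adjusted p = 0.153). It was called when replicate 3 of the iron-free spl7 roots was left out of the fit (adjusted p = 0.00243). In copper-free spl7 roots YSL3 had 77.2, 73.7 and 83.7 CPM, above the 3 spl7 controls, with a log2 change of 0.35 ± 0.16 (adjusted p = 0.542). In spl7 roots without both metals, relative to copper-free ones, the log2 change was -0.56 ± 0.16 and missed the threshold (adjusted p = 0.0504), except without that library (adjusted p = 0.000357). No member was called in that comparison, with 4.1% of all genes, and 1, YSL3, both at an unadjusted p below 0.05 and by DESeq2.

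In rosettes YSL3 fell without iron in Col-0, while no change with the treatment was called in spl7. It had 12.4, 15.2 and 14.5 CPM in iron-free Col-0 rosettes, against 21.7, 23.9 and 23.4 CPM in the Col-0 control. The log2 change was -0.71 ± 0.14 (adjusted p = 0.00471), in a comparison that called 2 of 8 members, YSL2 and YSL3, and 2.41% of all genes. Without both metals Col-0 rosettes had 13.9, 16.5 and 17.5 CPM, also all below the control, a log2 change of -0.52 ± 0.14 (adjusted p = 0.0208) that was lost without replicate 3 of the control or replicate 1 of the group itself (adjusted p up to 0.112). In that comparison 2 of 8 members were called, YSL3 and YSL8, and 7.77% of all genes. YSL3 was also lower than in copper-free Col-0 rosettes, by -0.53 ± 0.14 on the log2 scale (adjusted p = 0.0208), one of 4 of 8 members called beside 6.18% of all genes. It was not called without replicate 2 or 3 of the copper-free group or replicate 1 or 2 of the group without both metals (adjusted p up to 0.111). Every spl7 rosette library had 10.2 to 17.7 CPM of YSL3, with or without iron, and the iron-free spl7 rosettes had 10.2, 13.7 and 15.6 CPM, against 15.7, 13.3 and 15.1 CPM in the spl7 control. The iron response of spl7 minus that of Col-0 was 0.55 ± 0.20 and was not called (adjusted p = 0.081).

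YSL1, the member most strongly higher in rosettes than in roots, fell steeply in iron-free spl7 rosettes. It had 4.09, 6.49 and 6.73 CPM in iron-free spl7 rosettes, against 35.0, 31.04 and 38.8 CPM in the spl7 control. No library of one group came near the other, and the log2 change was -2.60 ± 0.34 (adjusted p = 7.98e-06). The comparison called 2 of 8 members, YSL1 and YSL6, and 27.4% of all genes. The 5 leaf markers summed to 15643 to 19864 CPM in iron-free spl7 rosettes and 25430 to 29419 CPM in the spl7 control, with 5 of 5 called lower. The 5 xylem markers summed to 199 to 333 CPM and 141 to 190 CPM in the same groups, with 2 of 5 called higher, and the 4 phloem markers to 468 to 521 CPM and 546 to 655 CPM, with 1 of 4 called lower. The part of these markers in the result was not tested. In iron-free Col-0 rosettes YSL1 had 10.9, 15.5 and 14.9955 CPM, against 39.5, 16.8 and 31.5 CPM in the Col-0 control. The iron-free libraries were again below all controls, but replicate 2 of the control was close to them, and the log2 change of -1.09 ± 0.30 was not called (adjusted p = 0.0599, DESeq2 0.0172). The iron response of spl7 minus that of Col-0 was -1.51 ± 0.45 (adjusted p = 0.0402), a steeper fall in spl7. This difference lost its call in 8 of 12 fits that left out 1 library (adjusted p up to 0.123), namely replicates 2 and 3 of the Col-0 control and of iron-free Col-0, replicates 1 and 3 of the spl7 control, and replicates 1 and 2 of iron-free spl7.

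With both metals withheld YSL1 in spl7 lay between the iron-free group and the control. It had 15.6, 14.5 and 16.6 CPM in spl7 rosettes without both metals, all above the iron-free spl7 libraries and below the spl7 controls. The rise over iron-free spl7 rosettes was 1.44 ± 0.35 (adjusted p = 0.00575), the 1 member called beside 18.1% of all genes. In that comparison 5 of 5 leaf markers were called higher, with sums of 24385 to 27266 CPM without both metals and 15643 to 19864 CPM without iron, and 2 of 5 xylem markers were called lower. Their part in this rise was not tested. Against the spl7 control the log2 change was -1.16 ± 0.31 (adjusted p = 0.0473), also the 1 member called, beside 2.11% of all genes. This call was lost whichever of the 6 libraries was left out (adjusted p 0.0691 to 0.163). Col-0 rosettes without both metals had 25.5, 21.6 and 28.7 CPM, inside the range of the Col-0 control (log2 change -0.22 ± 0.29, adjusted p = 0.745). Against iron-free Col-0 rosettes the log2 change of YSL1 was 0.87 ± 0.31 (adjusted p = 0.0653). Withholding copper alone gave no called change of YSL1, as copper-free spl7 rosettes had 30.9, 41.4 and 14.9 CPM (log2 change -0.28 ± 0.29, adjusted p = 0.711), and copper-free Col-0 rosettes had 31.7, 40.8 and 25.0 CPM (log2 change 0.15 ± 0.29, adjusted p = 0.933). In copper-free spl7 rosettes no member was called by edgeR or DESeq2 or at an unadjusted p below 0.05, while 1.12% of all genes were. Against copper-free spl7 rosettes, those without both metals had no called member (13.3% of all genes), and YSL1 alone had an unadjusted p below 0.05 and a DESeq2 call (log2 change -0.88 ± 0.31, adjusted p = 0.06 by edgeR and 0.0284 by DESeq2).

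Root YSL1 rested on 1 to 24 counts per library, and its values are correspondingly coarse. It had 1, 2 and 5 counts in iron-free spl7 roots, against 16, 8 and 7 counts in the spl7 control, and the log2 change was -2.00 ± 0.52 (adjusted p = 0.0129). Without the library that stands apart it was -2.89 (adjusted p = 0.00064). It was not called without replicate 1 of the spl7 control or replicate 1 or 2 of the iron-free group (adjusted p up to 0.122). In a fit of only the 2 groups YSL1 did not pass the filter on low counts and was not tested. In iron-free Col-0 roots it had 6, 8 and 4 counts, against 24, 18 and 19 counts in the Col-0 control, a log2 change of -1.81 ± 0.40 (adjusted p = 0.00456). The spl7 roots without both metals had 11, 11 and 8 counts and were above iron-free spl7 roots by 1.89 ± 0.52 (adjusted p = 0.0208). Without replicate 1 or 2 of either group YSL1 was not called (adjusted p up to 0.195), and without replicate 3 of the iron-free spl7 roots the log2 change was 2.79 (adjusted p = 0.000873). A fit of only these 2 groups did not test YSL1 either, for the same reason.

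Libraries of the same rosette group differed in YSL1, and FER1, a ferritin gene that plants keep high under iron supply, differed with it. In Col-0 control rosettes FER1 had 597, 39.7 and 306 CPM in the libraries where YSL1 had 39.5, 16.8 and 31.5 CPM. In copper-free spl7 rosettes FER1 had 530, 633 and 51.1 CPM beside 30.9, 41.4 and 14.9 CPM of YSL1. The library with the lowest YSL1 of its group also had the lowest FER1 in 8 of 9 rosette groups, and the one with the highest YSL1 the highest FER1 in 8 of 9. In roots the lowest libraries of YSL1 matched in 0 and the highest in 3 of 9 groups. For YSL2 the lowest matched in 6 and the highest in 4 root groups, and for YSL3 in 4 and 7. The rosette matches were 4 and 5 for YSL2, and 5 and 4 for YSL3. With 3 libraries per group, some matches arise by chance. FER1 was chosen for this description after its values were seen, and the genes compared share their libraries. FER1 itself was lower in iron-free spl7 rosettes by -6.54 ± 0.97 (adjusted p = 4.05e-05) and in iron-free Col-0 rosettes by -3.31 ± 0.80 (adjusted p = 0.0257) on the log2 scale.

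**Figure D4:**
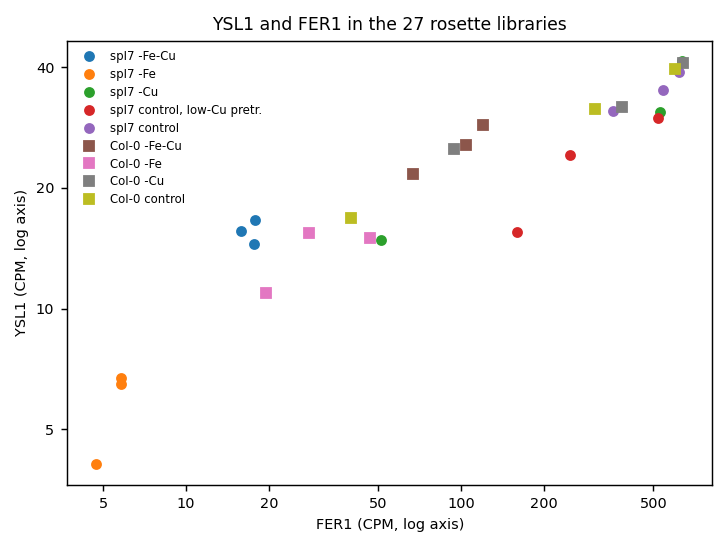
YSL1 (vertical axis) against FER1 (horizontal axis), both in CPM on log axes, in the 27 rosette libraries. Circles are spl7 groups and squares Col-0 groups, coloured by treatment group. The 3 iron-free spl7 libraries lie lowest on both axes, and libraries of 1 control group, such as the Col-0 control at 16.8 to 39.5 CPM of YSL1, spread along the same band.

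YSL4 and YSL6, the pair known from internal membranes, shared 82.8% of aligned coding bases. Within an organ, the highest group mean was at most 1.41 times the lowest for either gene. YSL4 had 7.01 to 13.0 CPM in roots and 5.57 to 8.82 CPM in rosettes and was called in no comparison with all libraries in the fit. Without replicate 3 of the iron-free spl7 roots it was called in spl7 roots without both metals against iron-free ones, beside 44% of all genes. YSL6 had 45.1 to 70.2 CPM in roots and 53.0 to 78.4 CPM in rosettes. It was called in 1 of 16 comparisons in roots and 4 of 16 in rosettes. In iron-free spl7 roots YSL6 had 45.1, 45.6 and 53.2 CPM, against 53.1, 58.5 and 55.4 CPM in the spl7 control, and in iron-free Col-0 roots 70.2, 65.1 and 67.3 CPM, against 55.4, 63.5 and 58.1 CPM in the Col-0 control. Neither change was called, at -0.22 ± 0.09 in spl7 (adjusted p = 0.0943) and 0.19 ± 0.08 in Col-0 (adjusted p = 0.102), but their difference was, at -0.41 ± 0.12 (adjusted p = 0.0388). That call was lost in 9 of 12 fits without 1 library (adjusted p up to 0.118), namely those without each replicate of iron-free Col-0 in turn, replicates 1 and 3 of the Col-0 control, replicates 2 and 3 of the spl7 control and replicates 1 and 2 of iron-free spl7. It was also lost with no filter on low counts (adjusted p = 0.0553) and in a fit of only the 4 groups (adjusted p = 0.103). Without the library that stands apart the difference was -0.49 (adjusted p = 0.0044), and that in YSL7 was called as well, at -0.60 (adjusted p = 0.0438), beside 18% of all genes.

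In rosettes YSL6 was highest in Col-0 without both metals, at 67.8, 78.4 and 67.8 CPM. These libraries lay above the 56.3, 54.9 and 57.3 CPM of iron-free Col-0 rosettes, by 0.35 ± 0.08 on the log2 scale (adjusted p = 0.00445), and above the 57.1, 58.8 and 58.4 CPM of copper-free ones, by 0.30 ± 0.08 (adjusted p = 0.0198). The comparison with iron-free Col-0 rosettes called 4 of 8 members, YSL2 and YSL6 higher and YSL7 and YSL8 lower, and 12.8% of all genes. That with copper-free ones called YSL6 higher and YSL2, YSL3 and YSL8 lower. The YSL6 call against copper-free rosettes was lost without replicate 1 or 2 of the copper-free group or replicate 2 of the other (adjusted p up to 0.144). The 5 leaf markers summed to 35039 to 36618 CPM in Col-0 rosettes without both metals, against 21620 to 28412 CPM in iron-free, 25161 to 29299 CPM in copper-free and 25206 to 30781 CPM in control Col-0 rosettes. Of these 5 markers, 4 were called higher than in the iron-free group, 2 than in the copper-free group and 1 than in the control, and 3 were called above the sum of the single changes. Their part in the changes of YSL6 and YSL8 was not tested. The departure of the group without both metals from the sum of the single changes was 0.41 ± 0.11 (adjusted p = 0.028), one of 2 of 8 members called, with YSL8, beside 4.5% of all genes. It lost its call in 7 of 12 fits without 1 library (adjusted p up to 0.0898), namely replicates 1 and 3 of the control, 1 and 2 of the copper-free and of the iron-free group, and 2 of the group without both metals. In iron-free spl7 rosettes YSL6 fell, at -0.22 ± 0.08 (adjusted p = 0.0388), with 57.7, 53.0 and 57.6 CPM against 61.6, 65.1 and 69.0 CPM in the spl7 control. That fall was lost in 5 of 6 fits without 1 library, all except the one without replicate 1 of the control (adjusted p up to 0.145).

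YSL8, a close relative of YSL5 (83.0% identical coding bases), was steady in roots, at up to 21.4 CPM in all libraries, and was lower in Col-0 rosettes without both metals than in the other Col-0 rosettes. It had 9.05, 7.38 and 11.9 CPM there, against 13.2, 15.7 and 16.8 CPM in the Col-0 control, with a log2 change of -0.68 ± 0.17 (adjusted p = 0.0162). Iron-free Col-0 rosettes had 14.95, 15.8 and 16.8 CPM and copper-free ones 17.5, 17.1 and 16.8 CPM, so neither single deficiency lay near the group without both metals. Against these the log2 changes were -0.74 ± 0.17 (adjusted p = 0.00601) and -0.85 ± 0.17 (adjusted p = 0.00243), and the departure from the sum of the single changes was -0.91 ± 0.24 (adjusted p = 0.0267). In spl7 rosettes without both metals YSL8 had 15.9, 18.6 and 12.7 CPM, inside the range of the 20.5, 15.03 and 11.3 CPM of the spl7 control. The response to both metals withheld differed between spl7 and Col-0 by 0.67 ± 0.24 for YSL8, which was not called (adjusted p = 0.0869). The change from the control lost its call without replicate 3 of the Col-0 control or replicate 1 or 2 of the group without both metals (adjusted p up to 0.093), and in a fit of only the 2 groups (adjusted p = 0.0528). The departure from the sum lost its call in 7 of 12 fits without 1 library (adjusted p up to 0.0972), namely replicate 1 of the control, 1 and 2 of the copper-free group, 2 and 3 of the iron-free group, and 1 and 2 of the group without both metals. YSL8 shares 474 bases with AT1G48380 on the opposite strand, which had no adjusted p below 0.05 in any comparison within an organ. The leaf marker sums given for YSL6 apply to these comparisons too.

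YSL7 was higher in iron-free Col-0 roots, where YSL1, YSL2 and YSL3 were lower, and in Col-0 roots without both metals. It had 15.8, 15.5 and 16.5 CPM in Col-0 roots without both metals and 15.4, 13.5 and 11.7 CPM in iron-free Col-0 roots, against 10.0, 9.98 and 10.9 CPM in the Col-0 control. Both groups lay above all controls, with log2 changes of 0.63 ± 0.14 (adjusted p = 0.0105) and 0.40 ± 0.14 (adjusted p = 0.0436). YSL7 was the 1 member called in Col-0 roots without both metals, where 4.69% of all genes were called. It missed the threshold without replicate 2 of the control (adjusted p = 0.0683). The iron-free one was lost in 5 of 6 fits without 1 library, all except the one without replicate 3 of iron-free Col-0 (adjusted p up to 0.175), and with no filter on low counts (adjusted p = 0.0609). In spl7 roots YSL7 had 13.3, 11.4 and 11.3 CPM without both metals and 10.2, 9.71 and 10.0 CPM without iron, against 11.6, 11.3 and 11.5 CPM in the control, and neither change was called. The iron-free change was -0.20 on the log2 scale (adjusted p = 0.362), and -0.21 without replicate 3 of that group (adjusted p = 0.297). The differences between the genotypes were -0.60 ± 0.20 for iron (adjusted p = 0.0662) and -0.56 ± 0.19 for both metals (adjusted p = 0.15). For both metals withheld no member differed between the genotypes in roots by edgeR or DESeq2, against 1.48% of all genes, and YSL7 alone had an unadjusted p below 0.05. Rosette YSL7 rested on 4 to 45 counts, with 4, 7 and 19 counts in Col-0 rosettes without both metals and 34, 25 and 22 counts in iron-free ones (log2 change -1.26 ± 0.41, adjusted p = 0.0462). YSL7 was not called without replicate 1 or 2 of either group (adjusted p up to 0.217).

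YSL5, the most abundant member per kb in both organs of the Col-0 control, was not called by edgeR in any comparison within an organ. DESeq2 called it in 2, lower in the low-copper-pretreated spl7 control roots than in Col-0 control roots and higher in Col-0 rosettes without both metals than in copper-free ones. The first had a log2 change of -0.38 ± 0.13 by edgeR (adjusted p = 0.0618 by edgeR, 0.0499 by DESeq2 and 0.000581 by edgeR without replicate 3 of the iron-free spl7 roots). The rosette change was 0.21 ± 0.07 by edgeR (adjusted p = 0.0719 by edgeR and 0.0418 by DESeq2). YSL5 had 59.8 to 76.9 CPM in rosettes and 44.9 to 77.7 CPM in roots. Both extremes of the roots came from the iron-free spl7 group, at 45.5, 44.9 and 77.7 CPM, against 64.9, 69.3 and 72.6 CPM in the spl7 control. Replicate 3 is the library that stands apart, and without it YSL5 was lower by -0.62 on the log2 scale (adjusted p = 3.02e-06), against -0.30 ± 0.13 with it (adjusted p = 0.139). In iron-free Col-0 roots it had 60.5, 57.3 and 53.98 CPM, all below the 69.5, 75.6 and 71.9 CPM of the control, and the log2 change of -0.34 ± 0.13 was not called (adjusted p = 0.0758) except without that library (adjusted p = 0.00116). Of the 31-base words of YSL5's exons 6.39% occur elsewhere in the nuclear genome, more than for any other member, so part of its reads may be assigned elsewhere or dropped. YSL5 also overlaps AT3G17655 on the opposite strand, a gene not analysed here. For the departure of the Col-0 group without both metals from the sum of the single changes in roots, no member was called by edgeR or DESeq2 (2.89% of all genes), and YSL1 and YSL5 had unadjusted p below 0.05 and were called without that library, with 14.4% of all genes.

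**Figure D5:**
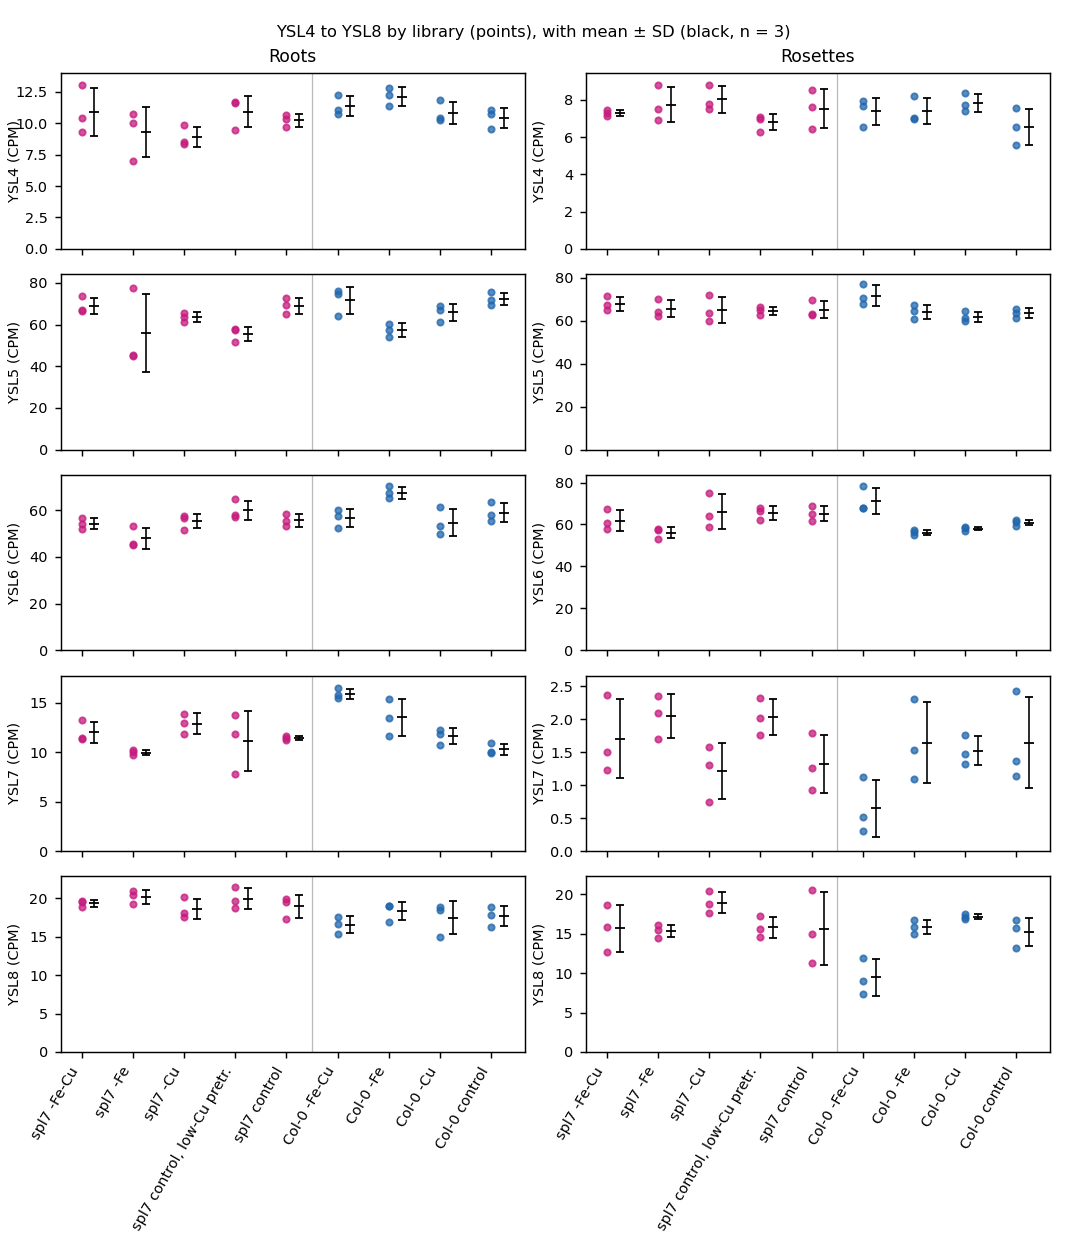
CPM of YSL4 to YSL8 in roots and rosettes by group, spl7 groups left of the vertical line and Col-0 groups right of it, each axis from 0. Points are libraries, and black bars are the mean ± SD of 3. YSL8 in Col-0 rosettes without both metals lies at 7.38 to 11.9 CPM, and the 77.7 CPM of YSL5 in iron-free spl7 roots is replicate 3.

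The genotypes were compared after the same pretreatment, in the control solution. In roots 3 of 8 members were lower in the low-copper-pretreated spl7 control than in the Col-0 control, YSL1, YSL2 and YSL3, and 13.3% of all genes were called. YSL2 had 15.6, 10.8 and 9.77 CPM in the low-copper-pretreated spl7 control, all below the Col-0 control, with a log2 change of -0.96 ± 0.18 (adjusted p = 0.00122). YSL3 had 46.7, 45.8 and 46.2 CPM there, also below all Col-0 controls, with -0.62 ± 0.16 (adjusted p = 0.0131), a call lost without replicate 2 of either group (adjusted p up to 0.0953). YSL1 had 4, 4 and 6 counts in low-copper-pretreated spl7 control roots and a log2 change of -1.95 ± 0.42 (adjusted p = 0.00399). The 5 xylem markers summed to 847 to 993 CPM in the low-copper-pretreated spl7 control roots and 541 to 613 CPM in Col-0 control roots, and the 4 phloem markers to 318 to 400 CPM and 308 to 323 CPM. The 5 root markers summed to 1133 to 1297 CPM and 857 to 961 CPM in the same order. Called higher were 3 of 5 xylem, 1 of 4 phloem and 3 of 5 root markers, and none was called lower. Their part in the result was not tested. The pretreatments alone, low against high copper within spl7 control roots, gave no called member by edgeR or DESeq2 (4.36% of all genes), with YSL1, YSL3 and YSL5 at unadjusted p below 0.05. Without replicate 3 of the iron-free spl7 roots in the fit, 2 members, YSL3 and YSL5, were called, and 10.9% of all genes.

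In rosettes 1 of 8 members, YSL3, was lower in the low-copper-pretreated spl7 control than in the Col-0 control, in a comparison that called 42.2% of all genes. It had 14.3, 13.1 and 15.9 CPM, against 21.7, 23.9 and 23.4 CPM, a log2 change of -0.67 ± 0.14 (adjusted p = 0.000445). YSL2 had 2.82, 2.62 and 2.38 CPM in these spl7 rosettes, which was below Col-0 without passing the test (log2 change -0.50 ± 0.24, adjusted p = 0.0966). It was above the spl7 control with high-copper pretreatment by 0.96 ± 0.27 (adjusted p = 0.0127), the 1 member called beside 23.9% of all genes, and that call was lost without replicate 2 of the high-copper-pretreated control (adjusted p = 0.077). The 4 phloem markers summed to 833 to 932 CPM in the low-copper-pretreated spl7 control rosettes, against 546 to 655 CPM in the high-copper-pretreated spl7 control and 539 to 620 CPM in Col-0. The 7 senescence genes summed to 200 to 261 CPM, against 152 to 189 CPM and 116 to 151 CPM in the same order. Against Col-0, 2 of 4 phloem markers and 5 of 7 senescence genes were called higher, and 1 senescence gene lower. Of 5 leaf markers 1 was higher and 2 lower there, and of 5 xylem markers 1 was higher. The part of these genes in these results was not tested.

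The iron response of Col-0 was finally set between organs. No member differed in its response between roots and rosettes by edgeR or DESeq2, while 3.96% of all genes did, and YSL5 and YSL6 had unadjusted p below 0.05. For YSL2 the log2 difference of the responses was 0.31 ± 0.31 with a 95% interval of -0.31 to 0.94, and for YSL3 it was -0.07 ± 0.23 with an interval of -0.53 to 0.39.

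Genes that make and store nicotianamine, the ligand of the transported metals, were listed beside the transporters. All partner comparisons named here use the same edgeR test over all genes. The list held 17 genes of the nicotianamine synthases, the S-adenosylmethionine synthetases, the methionine salvage cycle and the vacuolar nicotianamine transporter ZIF1, and 16 were tested in each organ. In iron-free spl7 roots 3 of 16 were higher and none lower, where 13.1% of all genes were called, with a median log2 change of 0.12 beside -0.003 over all genes. They were the nicotianamine synthase NAS4 (5.14 ± 0.72), the salvage enzyme gene ARD3 (2.01 ± 0.56) and ZIF1 (1.08 ± 0.18). When replicate 3 was left out, 5 of 16 were higher and 1 was lower, where 39.7% of all genes were called, with NAS4 at 5.66 ± 0.44, ARD3 at 2.54 ± 0.28 and ZIF1 at 1.35 ± 0.11. In iron-free Col-0 roots 9 of 16 were higher and 1 was lower, where 20.4% of all genes were called, with a median of 0.49 beside 0.007 over all genes. There NAS4 (2.25 ± 0.70), the S-adenosylmethionine synthetase gene MAT3 (0.65 ± 0.14) and the salvage gene MTI1 (0.65 ± 0.20) were higher, and ARD3 was lower (-2.11 ± 0.68). In iron-free spl7 rosettes, where 27.4% of all genes were called, 6 of 16 were higher and 1 was lower, with NAS4 (3.37 ± 0.37), ARD3 (2.90 ± 0.59) and ZIF1 (2.40 ± 0.24) higher and NAS3 lower (-4.37 ± 0.56), beside the fall of YSL1. In iron-free Col-0 rosettes, with 2.41% of all genes called, 1 of 16 was called, NAS3, which was lower (-3.20 ± 0.55). NAS4 and NAS3, both nicotianamine synthase genes, thus had opposite signs in iron-free spl7 rosettes.

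The list of oligopeptide transporters, the wider family around YSL, held 9 genes, of which 7 were tested in each organ. In iron-free spl7 roots OPT3, a phloem transporter needed for iron signalling between shoot and root, was higher by 4.15 ± 0.65 and OPT2 by 3.04 ± 0.58, 2 of 7 called, beside 13.1% of all genes. When replicate 3 was left out, 3 of 7 were called beside 39.7% of all genes, OPT3 (4.64 ± 0.49), OPT2 (3.48 ± 0.43) and OPT6. In iron-free spl7 rosettes OPT3 was higher by 3.31 ± 0.47 and OPT7 lower by -0.36 ± 0.09, 2 of 7 called beside 27.4% of all genes. No member of this list was called in iron-free Col-0 roots (20.4% of all genes) or rosettes (2.41%). Of the list of metal loading and redistribution, 4 of 13 tested genes were higher in iron-free spl7 roots and none lower, again beside 13.1% of all genes, with the vacuolar metal exporter NRAMP4 at 1.28 ± 0.21 and the ferric reductase FRO3 at 1.15 ± 0.21. Leaving out replicate 3 gave 4 higher and 4 lower beside 39.7% of all genes, with NRAMP4 at 1.61 ± 0.11 and FRO3 at 1.41 ± 0.16, and among the lower ones ZIP2 (-1.46 ± 0.28) and the iron exporter gene FPN1 (-1.12 ± 0.13). In iron-free Col-0 roots, with 20.4% of all genes called, 1 of 13 was higher, FRO3 at 0.75 ± 0.21, and 3 were lower, among them ZIP2, a metal transporter gene, at -3.42 ± 0.25 and the zinc pump HMA2 at -1.05 ± 0.14. ZIP2 was also the 1 gene of this list called in copper-free Col-0 roots, beside 0.0733% of all genes, where it was higher by 1.62 ± 0.21, the direction of YSL2 in both comparisons. In rosettes without iron in spl7 6 of 12 tested genes of this list were higher and none lower, beside 27.4% of all genes, with FRO3 at 3.62 ± 0.34, the citrate exporter FRD3 at 2.86 ± 0.68 and NRAMP4 at 2.25 ± 0.23. In iron-free Col-0 rosettes, beside 2.41% of all genes, 1 of 12 was higher, the copper pump HMA5 at 0.94 ± 0.15. Of 7 senescence genes tested in rosettes, 4 were lower and none higher in iron-free spl7 rosettes (27.4% of all genes called), led by the transcription factor gene NAP (-2.56 ± 0.31), and 1 was lower in iron-free Col-0 rosettes (2.41%), again NAP (-2.01 ± 0.33).

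The genes whose group means moved most like a member's were found over the 9 groups of an organ, by the root mean square difference of centred log2(CPM + 0.5) means, for members spanning at least 1 log2 unit. For YSL2 the nearest gene was CCH, a copper chaperone gene, in roots (0.20 log2 units among 20461 genes) and in rosettes (0.23 among 20014). The next were AT2G47010 in roots (0.21) and COPT2, a copper transporter gene, in rosettes (0.32). For YSL1 in rosettes the nearest were APX1, a cytosolic ascorbate peroxidase gene (0.16), and TPD1 (0.17). For YSL3 in roots they were AT3G49160 (0.19) and AT3G62650 (0.21). For the low counts of YSL1 in roots they were MC3 (0.12) and DYL1 (0.14), and for those of YSL7 in rosettes QRT3 (0.11) and KT5 (0.12). YSL1 had 0.0626 to 1.75 CPM in roots and YSL7 0.299 to 2.42 CPM in rosettes. The 0.5 CPM added before the logarithm flattens such low levels, so these small distances do not mark a closer likeness. The points are means of groups that share libraries, so these distances are descriptions with no test.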

How the data were processed

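Each library's file holds whole-number read counts per gene, deposited by the authors without scaling. The tools named in the submitters' processing notes are Bowtie and HTSeq, and the build is TAIR10. Their versions and the strand setting are not given in the sources used here. The labels put 54 libraries of total RNA into 18 groups of 3. From the counts, edgeR 4.0.16 in R 4.3.3 was run per organ on 27 libraries, with filterByExpr (minimum count 10, total 15), TMM scaling, glmQLFit and glmQLFTest, 1 mean per group and no covariate. This left 20462 genes in roots and 20015 in rosettes, all 8 members in each, and 22078 in a fit of all 54 libraries for the 2 comparisons between organs. P-values were Benjamini-Hochberg adjusted over all genes tested, with 0.05 as the threshold, in 34 comparisons that share control and treatment groups. The fits were first tested on simulated data with planted changes.

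Fold changes are group over group, and a response difference is the spl7 change minus the Col-0 change. Levels per kb were divided by merged exonic length in the RefSeq TAIR10.1 annotation, since no protein table was used. Promoter letters are 300 bases of that assembly before the annotated start. The members and lists were chosen with earlier results of these data known. All 8 members and SPL7 are named, with at most 4 called genes of each partner list per comparison, those with the largest log2 change, and the 2 genes most like a member. Alternatives were DESeq2 1.42.0 size factors and its Wald test, no filter on low counts, a replicate block, only the compared groups, 26 root libraries and leaving out each library.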

Additional observations from a re-analysis of the deposited data

Results flagged for a closer look

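In roots the iron response of YSL2 in spl7 minus that in Col-0 was 1.12 on the log2 scale, and that of YSL6 was -0.41, both picked out by the test of the difference between the responses of the genotypes. In rosettes the same difference was 1.46 for YSL2 and -1.51 for YSL1, so the 2 genes had opposite signs. In Col-0 rosettes the change without both metals departed from the sum of the single changes by 0.41 for YSL6 and -0.91 for YSL8 on the log2 scale. Of 12 fits that each left out 1 library, the call was lost in 9 for root YSL6, 8 for YSL1, and 7 each for the departures of YSL6 and YSL8. For YSL2 it was lost in 0 of 12 in roots and 1 of 12 in rosettes. In a fit of only the compared groups neither root difference was called. The genotype differences also compare the pretreatments, which cannot be told apart from the genotype in these groups.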

How the results depend on the processing

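Of 46 member calls over 34 comparisons, 46 remained with DESeq2 size factors in the edgeR fit, 46 by the DESeq2 Wald test (57 calls in all), 43 with no filter on low counts (44 in all), 41 with a replicate block (41 in all) and 37 in fits of only the compared groups (55 in all). Of 18 in roots, 18 remained without replicate 3 of the iron-free spl7 roots (38 in all). No call changed sign. The replicate numbers were not taken to pair the libraries. The correlations of same-numbered deviations ran between -0.378 and 0.305 over all pairs of groups, and every pair was over 0.1 in 1 of 24 comparisons, Col-0 roots without both metals against control (0.106 to 0.286), where YSL7 was called with the block too (adjusted p = 0.0171). With the replicate block the members called were 1 in place of 2 for the iron response difference in roots, where YSL6 was lost (adjusted p = 0.0505), and in rosettes, where YSL1 was lost (adjusted p = 0.0521), and 0 in place of 1 in spl7 rosettes without both metals against control (YSL1, adjusted p = 0.0631). The block also lost YSL7 in iron-free Col-0 roots (adjusted p = 0.0567) and in Col-0 rosettes without both metals against iron-free (adjusted p = 0.0514). With no filter, the root iron response difference had 1 in place of 2. By the Wald test the members called were 3 in place of 1 in Col-0 roots without both metals against copper-free, and 1 in place of 0 in the same comparison of spl7 roots, that of spl7 rosettes and the root copper response difference. With 26 root libraries the numbers were 2 in place of 1 in copper-free Col-0 roots, 4 in place of 2 in iron-free spl7 roots, 5 in place of 2 without both metals against iron-free in either genotype, 3 in place of 1 (Col-0) and 1 in place of 0 (spl7) without both metals against copper-free, 2 in place of 0 for the pretreatments in spl7 roots and for the Col-0 departure from the sum, and 1 in place of 0 for the copper response difference. In fits of only the compared groups the same counts were 0 in iron-free spl7 roots, 5 (Col-0) and 0 (spl7) against iron-free, 3 (Col-0) and 1 (spl7) against copper-free, 2, 2 and 1. Those fits also gave 0 in place of 2 for the root iron response difference, 1 in place of 0 for the response difference to both metals in roots and in rosettes and for the organ difference, and 1 in place of 2 in iron-free Col-0 rosettes and in Col-0 rosettes without both metals. Leaving out each library, roots gave 3 to 4 members in iron-free Col-0, 0 to 1 in Col-0 without both metals, 0 to 4 in iron-free spl7, 1 to 2 (Col-0) and 0 to 5 (spl7) without both metals against iron-free, 1 to 2 in Col-0 against copper-free, 2 to 3 in the low-copper-pretreated spl7 control against Col-0, 0 to 1 for the copper and 1 to 3 for the iron response difference. Rosettes gave 1 to 3 in iron-free Col-0, 0 to 3 in Col-0 without both metals, 3 to 4 of these against iron-free and 1 to 5 against copper-free, 0 to 2 for the departure from the sum, 1 to 2 in iron-free spl7, 0 in spl7 without both metals against control and 0 to 1 against copper-free, 0 to 1 for the pretreatments, 1 to 2 for the iron response difference and 0 to 2 for that to both metals, and the organs gave 5 to 7. The share of all genes called also changed with the fit, as in iron-free spl7 roots, from 13.1% to 39.7% with 26 root libraries. For the Wald test, the replicate block, no filter and the fits of only the compared groups it is not given here. These member counts are therefore not set against all genes. The cause of these shifts was not tested. Low counts limit YSL1 in roots (1 to 24 per library) and YSL2 and YSL7 in rosettes.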
